A study of Mus musculus with 20 samples.

Results

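The Hox genes of the mouse were described here across 6 kinds of cultured cells. Members were all genes whose symbol in the platform annotation is Hoxa, Hoxb, Hoxc or Hoxd followed by digits only, and 33 of the 18193 genes on the array met this rule. They comprised 9 genes of the HoxA cluster, 9 of HoxB, 7 of HoxC and 8 of HoxD. By paralog group, the position of a gene within its cluster, 7 were anterior (groups 1 to 3), 12 central (groups 4 to 8) and 14 posterior (groups 9 to 13). Where a gene had several probe sets, the brightest one, by its average across the 20 arrays, stood for it. Hoxb8 and Hoxd4 had only probe sets that also carry another Hox symbol and were therefore no members.

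Hox genes encode homeodomain transcription factors that give cells their position along the head-to-tail axis of the embryo. They lie in clusters in which the order along the chromosome matches the order in which the genes come on in time and from head to tail, so that anterior genes act in the hindbrain and posterior genes in the trunk, limbs and tail. Polycomb complexes keep the clusters silent in pluripotent cells, retinoic acid and Cdx factors open them in the embryo, and Pbx and Meis proteins (the TALE cofactors) bind DNA together with many Hox proteins. Connective tissue cells taken from the body keep a Hox pattern in culture that reflects where they came from.

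The study measured RNA from 20 cell samples on Affymetrix arrays, and its title names the induction of pluripotency in unipotent germline stem cells of the adult. Germline stem cells (GSC, 3 arrays) were cultured from testes of B6;CBA-Tg(Pou5f1-EGFP)2Mnn/J mice, called OG2, in which green fluorescent protein is driven by the Pou5f1 (Oct4) promoter. They grew in a medium with epidermal growth factor, basic fibroblast growth factor, glial cell line-derived neurotrophic factor and leukemia inhibitory factor, on inactivated mouse embryonic fibroblasts. Germline pluripotent stem cells (gPS, 5 arrays) arose from OG2 GSC that were left on fibroblasts without passage for 3 to 4 weeks, were picked as brightly fluorescent round colonies and were expanded on fibroblasts in ESC medium; whether the 5 arrays stand for separate colonies is not given. ESC-like cells (ESC_like, 3 arrays) came from testes of mice of postnatal days 0 to 2 and were a gift of another laboratory, and their strain is not given in the labels. A further label of these samples speaks of GSC from Oct4-GFP mice, against their title, source and culture label, and they were grouped by the title. Embryonic stem cells (ESC, 3 arrays) were of the RW4 line, so that they represent 1 line. Both ESC_like and ESC were grown on fibroblast feeders with leukemia inhibitory factor. Neural stem cells (NSC, 3 arrays) were derived in culture from Olig2-GFP ESC, and mouse embryonic fibroblasts (MEF, 3 arrays) were prepared from C3H mice at E12.5. No age is given in the labels for the mice from which GSC were taken. Nothing in the labels says that the arrays of a group came from separate cultures or animals, so that p-values measure the spread between these samples, which may be technical.

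Values are RMA log2 intensities, on which 1 unit is a 2-fold difference, and differences are given with the moderated standard error (SE) of limma. A gene was called in a comparison where the difference reached 1 log2 unit and its p, adjusted by the Benjamini-Hochberg method across the 18193 genes, was under 0.05. The labels were set against marker sums. The sum of 10 germ cell markers was highest in GSC and on the arrays of the other groups was 2.71 to 11.0% of the GSC mean, and the sum of 10 pluripotency markers reached 86.3 to 103% of the ESC mean on gPS arrays, 80.5 to 87.1% on ESC_like arrays and 1.39 to 7.63% on GSC, NSC and MEF arrays. Neural stem markers (11 measured of 12) were highest in NSC and summed to 37.9 to 38.3% of the NSC mean on MEF arrays, 17.6 to 18.8% on ESC_like and 3.53 to 3.81% on ESC arrays. Fibroblast markers (13 measured of 14) summed to 1.29 to 1.57% of the MEF mean on ESC arrays, 3.99 to 4.91% on NSC, 4.48 to 11.8% on gPS, 7.43 to 9.08% on GSC and 16.7 to 20.8% on ESC_like arrays. None of the 13 was at 0, which an intensity cannot be. In RNA from whole cultures, fewer cells of a kind and less RNA per cell cannot be told apart.

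The windows upstream of 4 members are shown because these genes stand for the 3 patterns described below: Hoxb1 and Hoxb4 for genes high in GSC, Hoxa2 for NSC and Hoxd8 for MEF. Each is the 250 bases before the transcription start in RefSeq on GRCm38.p6, read 5′ to 3′ on the strand of the gene: Hoxb1 at chr11:96365508-96365757 (+), Hoxb4 at chr11:96318017-96318266 (+), Hoxa2 at chr6:52164832-52165081 (-) and Hoxd8 at chr2:74704365-74704614 (+). Capitals mark matches on either strand to TGATNNAT, a short form of the site that Hox and Pbx proteins bind together, whose other strand reads ATNNATCA.
Hoxb1: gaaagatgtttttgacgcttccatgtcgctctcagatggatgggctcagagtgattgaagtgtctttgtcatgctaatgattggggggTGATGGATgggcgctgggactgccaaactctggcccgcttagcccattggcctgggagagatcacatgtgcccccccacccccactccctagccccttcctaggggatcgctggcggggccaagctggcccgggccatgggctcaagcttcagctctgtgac
Hoxb4: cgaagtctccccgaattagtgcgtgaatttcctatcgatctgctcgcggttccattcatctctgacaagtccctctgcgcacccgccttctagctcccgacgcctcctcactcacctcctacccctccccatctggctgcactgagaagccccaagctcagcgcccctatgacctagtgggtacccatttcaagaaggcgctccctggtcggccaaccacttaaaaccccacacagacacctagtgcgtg
Hoxa2: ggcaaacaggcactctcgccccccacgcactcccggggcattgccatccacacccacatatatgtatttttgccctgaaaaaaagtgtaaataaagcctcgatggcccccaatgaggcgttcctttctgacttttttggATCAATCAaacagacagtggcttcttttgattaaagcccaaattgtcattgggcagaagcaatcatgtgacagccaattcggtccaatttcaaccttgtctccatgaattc
Hoxd8: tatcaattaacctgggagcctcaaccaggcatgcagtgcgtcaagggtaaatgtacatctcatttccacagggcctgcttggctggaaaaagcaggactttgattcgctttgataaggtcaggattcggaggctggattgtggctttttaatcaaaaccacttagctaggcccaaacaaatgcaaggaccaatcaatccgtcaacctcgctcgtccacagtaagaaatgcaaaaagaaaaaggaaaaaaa
The Hoxb1 match, TGATGGAT, began 162 bases before the start, and the Hoxa2 match, ATCAATCA, began 111 bases before it.

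RefSeq windows were at hand for 19 of the 33 members, 21 windows in all since Hoxa10 and Hoxd11 have more than 1 start, and the other 14 members have none in the table. The motif was in 3 of these 21 windows (14.3%), those of Hoxb1, Hoxa2 and 1 start of Hoxd11, against 7.68% of all 32851 windows of the same length. CpG pairs numbered from 2 to 35 per member window with a median of 13, and 17 of the 21 windows lay above the median of 6 of all windows. The count was 7 for Hoxb1, 14 for Hoxb4, 6 for Hoxa2 and 6 for Hoxd8. A match is a description of the letters and not of binding.

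**Figure D1:**
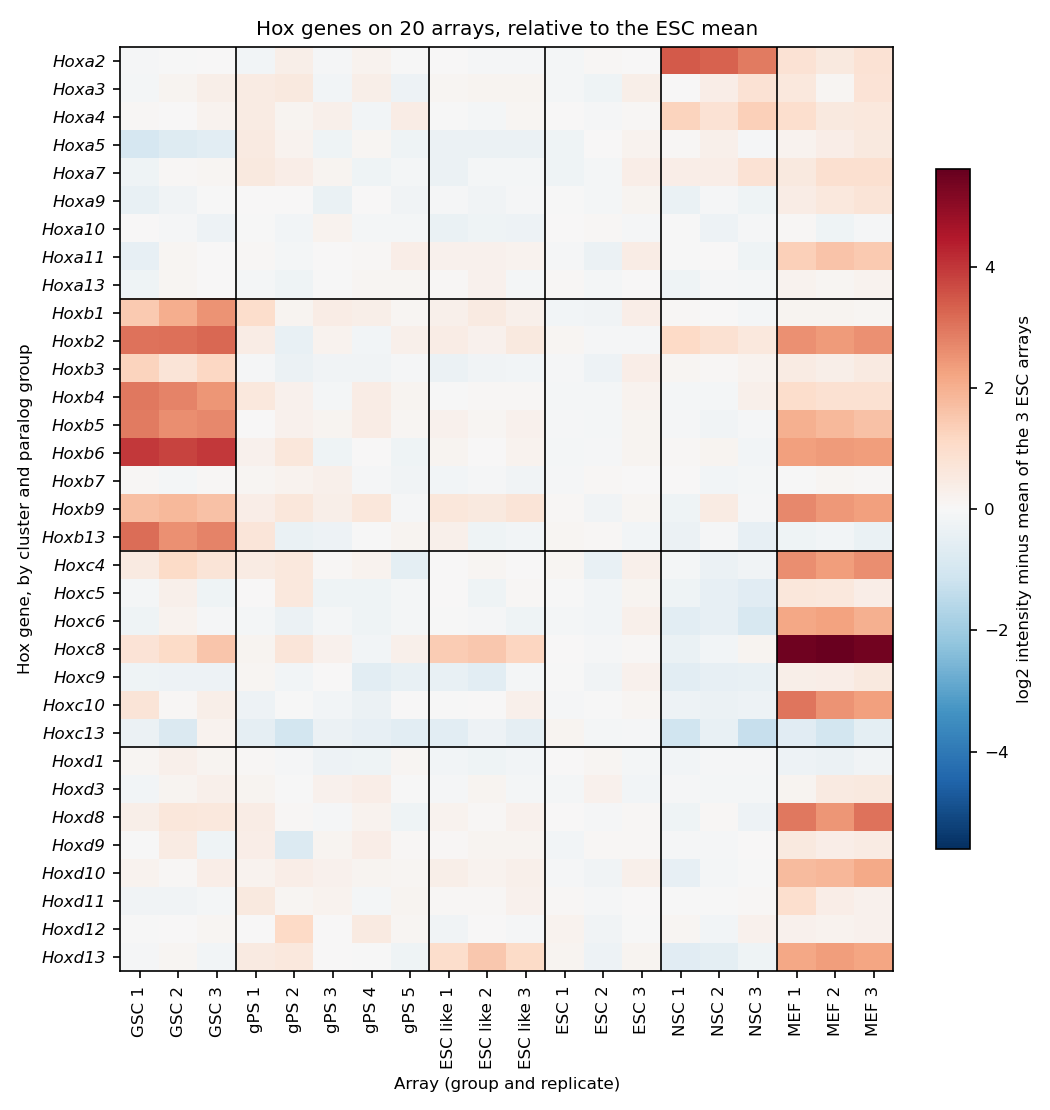
Each row is a Hox gene, ordered by cluster and paralog group, and each column an array; colour gives the log2 intensity minus the mean of the 3 ESC arrays, and black lines separate groups and clusters. The block of high values in GSC lies in HoxB, that in NSC is Hoxa2, and MEF carries high values in HoxB, HoxC and HoxD, with Hoxc8 at 5.46 above ESC.

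MEF against ESC asks which Hox genes mark fibroblasts of the embryo. By limma with Benjamini-Hochberg adjustment, 12 of 33 Hox genes were higher in MEF, where 12.47% of all genes were, and 0 were lower, where 10.9% of all genes were; at an unadjusted p under 0.05, 25 were higher and 2 lower. The 12 were Hoxa11 in HoxA, Hoxb2, Hoxb5, Hoxb6 and Hoxb9 in HoxB, Hoxc4, Hoxc6, Hoxc8 and Hoxc10 in HoxC, and Hoxd8, Hoxd10 and Hoxd13 in HoxD. By position they were 1 of 7 anterior, 6 of 12 central and 5 of 14 posterior genes. The median difference over the 33 genes was 0.57, against -0.095 over all genes. The comparisons of MEF, NSC, GSC, gPS and ESC_like with ESC share the 3 ESC arrays, so that their values are given side by side and are not independent.

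Hoxc8, which patterns the thoracic skeleton and the motor neurons of the forelimb level, measured 8.65, 8.74 and 8.63 in MEF replicates 1 to 3 and 3.24, 3.13 and 3.28 in ESC. The MEF arrays lay above every other array, and the difference of 5.46 (SE 0.19, adjusted p = 1.41e-15) was the largest of the Hox genes in this comparison. Hoxd8, expressed in the trunk, read 7.84, 7.37 and 7.93 in MEF against 4.91, 4.84 and 4.95 in ESC, a difference of 2.82 (SE 0.16, adjusted p = 4.13e-12) with no overlap. For Hoxc10, a gene of the lumbar spinal cord and hindlimb, the MEF values of 6.73, 6.24 and 6.00 stood clear of the ESC values of 3.63, 3.71 and 3.81. Its difference was 2.61 (SE 0.17, adjusted p = 2.8e-11). Hoxc4, an early acting gene of the neck region, measured 7.44, 7.20 and 7.45 against 4.98, 4.45 and 5.12, and Hoxc6, a gene of the upper trunk, 7.67, 7.79 and 7.51 against 5.39, 5.38 and 5.79. Both sets of MEF values were above all ESC values, by 2.51 (SE 0.22, adjusted p = 4.16e-09) and 2.14 (SE 0.14, adjusted p = 3.96e-11).

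Among the posterior HoxD genes, Hoxd13, which is needed for digits and the genital tubercle, read 6.85, 7.02 and 6.89 in MEF and 4.80, 4.39 and 4.81 in ESC. Hoxd10, a gene of the lumbar level and the limb, read 4.92, 5.01 and 5.28 against 3.07, 2.97 and 3.42. Neither pair of groups overlapped, and the differences were 2.25 (SE 0.19, adjusted p = 2.8e-09) for Hoxd13 and 1.92 (SE 0.14, adjusted p = 1.64e-10) for Hoxd10. In HoxB, Hoxb2, a gene of the hindbrain, measured 7.61, 7.45 and 7.62 against 5.17, 4.97 and 5.00, Hoxb9, which acts with its paralogs on the ribs, 6.57, 6.33 and 6.19 against 3.95, 3.70 and 4.01, and Hoxb6, a gene of the lateral mesoderm, 5.59, 5.68 and 5.62 against 3.19, 3.22 and 3.43. All 3 were separate from ESC, by 2.51 (SE 0.18), 2.48 (SE 0.18) and 2.35 (SE 0.17). Smaller differences were called for Hoxb5 (1.82, SE 0.12) and for Hoxa11, a gene of the forearm and the uterus (1.47, SE 0.17).

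Of the 21 Hox genes not called, the difference was largest for Hoxb4 (0.89, SE 0.16, adjusted p = 9.95e-05) and Hoxa7 (0.77, SE 0.20, adjusted p = 0.0026), which passed the adjusted p and missed the 2-fold limit. It was smallest for Hoxb7 (0.05) and Hoxa10 (-0.07). With no fold limit, 22 of 33 genes would be higher and 1 lower.

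The choice of probe set bears on the HoxA cluster. A second probe set existed for 11 members, and in a fit on all 45037 probe sets 21 of the 48 probe sets of members were higher in MEF than in ESC, where 9.93% of all probe sets were; they belonged to 18 genes. Hoxa9, a posterior gene of the trunk and of blood progenitors, measured 8.90, 8.99 and 8.99 in MEF and 4.01, 4.17 and 3.92 in ESC on probe set 1455626_at, a difference of 4.92 (SE 0.20, adjusted p = 8.37e-15). On the probe set with the higher mean, 1421579_at, it measured 6.48, 6.66 and 6.82 against 6.04, 5.96 and 6.24. Both probe sets placed MEF above ESC, and only the first passed the 2-fold limit. Hoxa5, which acts in the lung and the neck skeleton, differed by 4.13 (SE 0.18) on 1448926_at and by 0.37 (SE 0.17) on the set used, whose name ends in x_at and which may detect more than 1 transcript. Hoxa10 differed by 2.29 (SE 0.15) on 1431475_a_at and Hoxb3 by 3.58 (SE 0.14) on 1456229_at. For Hoxc5 the differences were 2.70 (SE 0.20) and 2.99 (SE 0.18) on both sets not used. Some other sets gave smaller differences than the set used. Hoxc6, whose set used also ends in x_at, differed by 1.83 (SE 0.13) on 1427361_at. On 1427454_at it differed by 0.75 (SE 0.14) and was not called. Hoxd13 differed by 0.69 (SE 0.18) on 1422239_at and was not called.

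**Figure D2:**
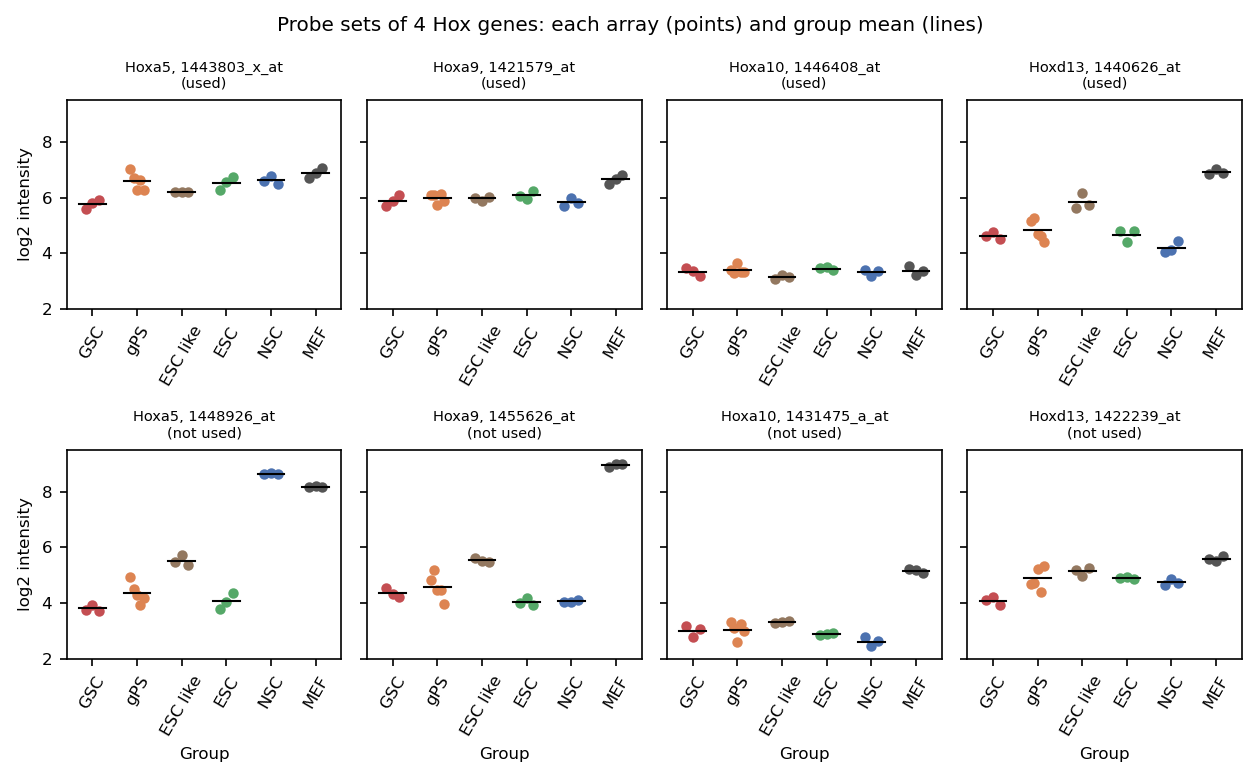
Each panel shows 1 probe set of Hoxa5, Hoxa9, Hoxa10 or Hoxd13, the upper row the set with the highest mean, which represents the gene, and the lower row another set; points are arrays, black lines group means, and the vertical axis is log2 intensity. On the lower sets Hoxa5 is high in NSC and MEF and Hoxa9 in MEF, while the upper sets of these genes differ from ESC by less than 1 unit. For Hoxd13 the upper set shows the larger differences from ESC in MEF, NSC and ESC_like. In GSC the lower set shows the larger one, with 4.10, 4.22 and 3.92 against 4.91, 4.92 and 4.88 in ESC.

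NSC against ESC asks which Hox genes mark a neural cell type that was made in culture from ESC. Of the 33, 2 were higher in NSC (11.4% of all genes), Hoxa2 and Hoxa4, and 0 were lower (10.0% of all genes); at an unadjusted p under 0.05, limma gave 4 higher and 5 lower. The share of Hox genes called higher, 2 of 33, was below that of all genes, and their median difference was -0.09 against -0.098 over all genes. Hoxa2, which specifies the hindbrain and the skeleton of the second branchial arch, read 6.47, 6.36 and 5.95 in NSC and 2.96, 3.12 and 3.07 in ESC. All NSC arrays were more than 2 units above every array of the other groups, and the difference was 3.21 (SE 0.14, adjusted p = 3.69e-14). Hoxa4, a gene of the neck vertebrae, read 4.16, 3.74 and 4.26 against 2.94, 2.85 and 3.00, a difference of 1.12 (SE 0.15, adjusted p = 2.87e-06) with no overlap. On the mean of both its probe sets the difference of Hoxa4 was 0.71 and was not called.

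Probe sets not used by the rule added Hoxa5 and Hoxa3 in NSC, so that 4 probe sets of 4 HoxA genes were higher, where 9.52% of all probe sets were. Hoxa5 read 8.63, 8.66 and 8.64 on 1448926_at against 3.77, 4.03 and 4.37 in ESC, 4.59 higher (SE 0.18, adjusted p = 1.13e-14), and Hoxa3, a gene of the hindbrain and pharyngeal arches, read 5.28, 5.41 and 5.54 on 1427433_s_at against 2.97, 3.16 and 3.38. The Hoxa3 difference was 2.24 (SE 0.16). Each was separate from ESC. The genes called in NSC by either fit lay in HoxA within paralog groups 2 to 5, and no gene of paralog groups 9 to 13 was called higher. These calls, 2 of 33 genes and 4 of 48 probe sets, were not above the shares of all genes and probe sets. They are too few to read a pattern by cluster or position. The limit to HoxA also rests on the 2-fold threshold. On 1456229_at Hoxb3 read 4.39, 4.32 and 4.34 in NSC against 3.50, 3.48 and 3.12 in ESC. Its difference by limma was 0.98 (SE 0.14, adjusted p = 4.95e-06), just under the threshold. Of the members not called, Hoxc13, a gene of hair and nail, had a difference of -0.94 (SE 0.23, adjusted p = 0.00197) and Hoxb2 one of 0.86 (SE 0.18, adjusted p = 0.000343). The means of Hoxb1 (2.97 in NSC, 2.98 in ESC) and of Hoxd11 (3.75 in both) lay closest together.

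Set directly against NSC, MEF were higher in 12 of 33 Hox genes (8.84% of all genes) and lower in 1 (8.13% of all genes). This comparison shares the MEF arrays with that against ESC. Hoxc8 differed by 5.58 (SE 0.19), Hoxd8 by 2.96 (SE 0.16), Hoxc10 by 2.90 (SE 0.17), Hoxc6 by 2.78 (SE 0.14), Hoxd13 by 2.73 (SE 0.19) and Hoxc4 by 2.71 (SE 0.22). The differences of Hoxb9, Hoxb6, Hoxd10, Hoxb5, Hoxb2 and Hoxa11 were between 2.44 and 1.56. Hoxa2 was the 1 gene lower in MEF, at 3.86, 3.59 and 3.86 against the NSC values above, a difference of -2.49 (SE 0.14, adjusted p = 2.61e-12). Every MEF value of Hoxa2 was above every ESC value and below every NSC value. Of genes not called, Hoxc5 (0.95) and Hoxc9 (0.91) differed most and Hoxb13 (0.03) and Hoxa10 (0.06) least.

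**Figure D3:**
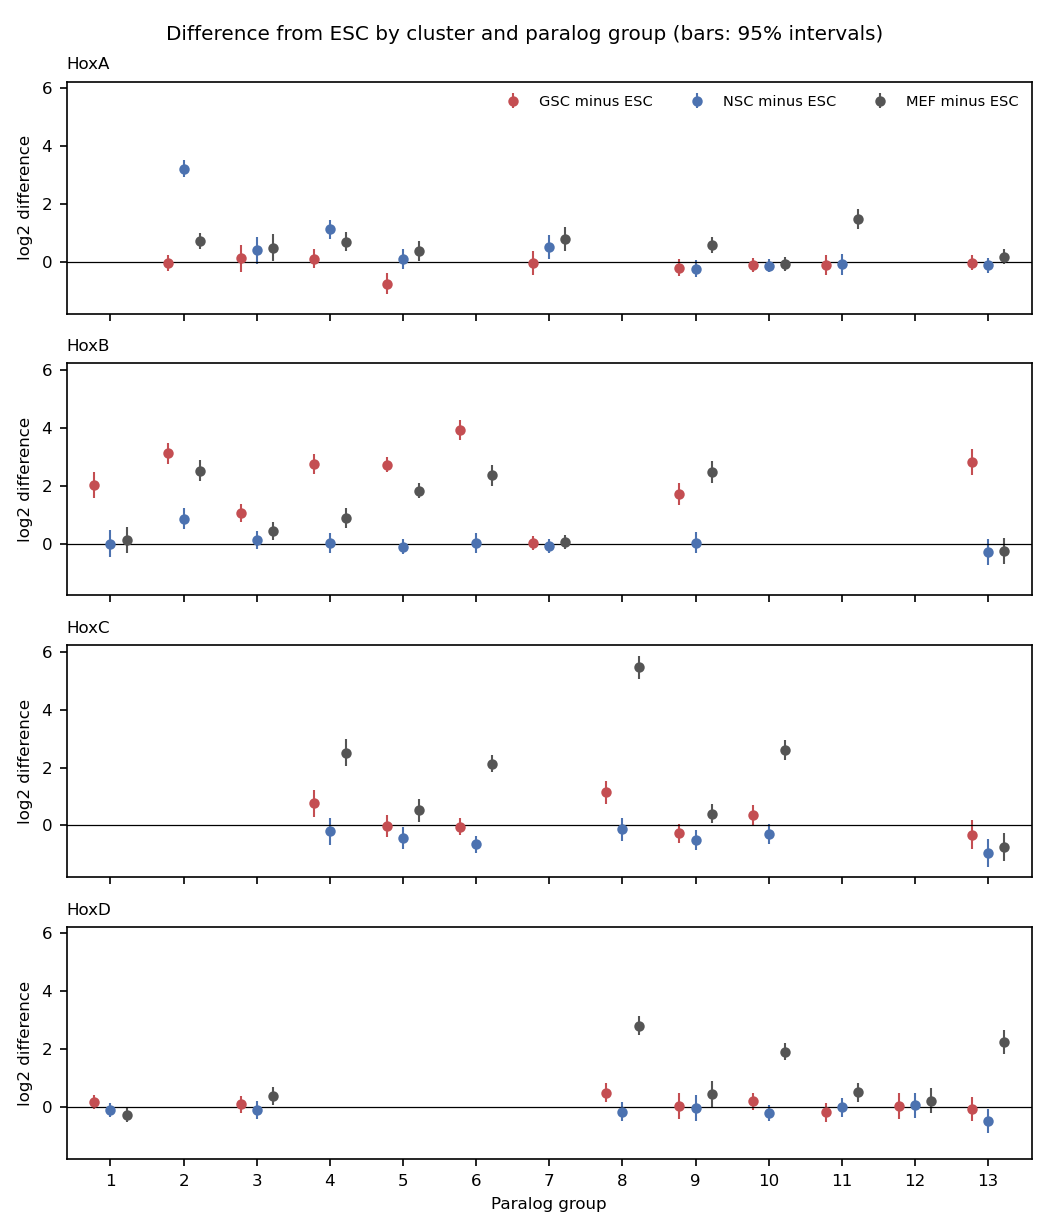
Each panel is a Hox cluster, with the paralog group on the horizontal axis and the log2 difference from ESC on the vertical axis; points are limma estimates for GSC, NSC and MEF, and bars are 95% intervals. The GSC points reach 1 unit above 0 along HoxB, except Hoxb7 at 0.01, and at Hoxc8. The NSC points reach it at Hoxa2 and Hoxa4. Under 1 unit, the NSC intervals of Hoxa7 and Hoxb2 also lie above 0, and those of 5 genes lie below 0. The MEF points reach 1 unit in all 4 clusters, highest at Hoxc8.

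GSC against ESC asks how the Hox genes of the cells of origin differ from those of pluripotent cells. Of 33 Hox genes, 9 were higher in GSC (13.1% of all genes) and 0 lower (10.2% of all genes); the unadjusted counts by limma were 12 and 1. They were 8 of the 9 HoxB genes (Hoxb1, Hoxb2, Hoxb3, Hoxb4, Hoxb5, Hoxb6, Hoxb9 and Hoxb13) and Hoxc8, and no gene of HoxA or HoxD was called. The HoxB genes had a median difference of 2.72, and the medians of HoxA, HoxC and HoxD were -0.03, -0.03 and 0.08, against -0.001 over all genes. The 9 comprised 3 of 7 anterior, 4 of 12 central and 2 of 14 posterior genes, so that both ends of the HoxB cluster were included.

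Hoxb6, a gene of the lateral mesoderm and of blood progenitors, read 7.23, 7.08 and 7.26 in GSC replicates 1 to 3 and 3.19, 3.22 and 3.43 in ESC. This was the largest difference in GSC, 3.91 (SE 0.17, adjusted p = 6.3e-14), or 15.1-fold, and the GSC arrays stood above those of all other groups, MEF included. Hoxb2 read 8.07, 8.13 and 8.27 against 5.17, 4.97 and 5.00, 3.11 higher (SE 0.18, adjusted p = 5.04e-12). Hoxb13, the most posterior gene of the cluster and known from the tail and the prostate, read 7.46, 6.93 and 7.13 against 4.47, 4.41 and 4.18, and Hoxb4, which is studied for the expansion of blood stem cells, 8.25, 8.08 and 7.75 against 5.18, 5.19 and 5.49. Both were separate from every other group, and the differences were 2.82 (SE 0.21, adjusted p = 3.77e-10) and 2.74 (SE 0.16, adjusted p = 1.12e-11).

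Hoxb5, a gene of the shoulder level and of blood stem cells, read 6.14, 5.84 and 5.93 in GSC and 3.18, 3.16 and 3.41 in ESC, 2.72 higher (SE 0.12, adjusted p = 1.27e-13). Hoxb1, the most anterior gene, needed in the hindbrain for the facial nerve, read 4.46, 5.03 and 5.51 against 2.82, 2.77 and 3.34, and it varied more between the GSC arrays than any other HoxB gene. Its difference was 2.02 (SE 0.22, adjusted p = 1.12e-07), and its lowest GSC value was above the highest value of the other groups, 3.94 in gPS replicate 1. Hoxb9 read 5.58, 5.72 and 5.51 against 3.95, 3.70 and 4.01, 1.71 higher (SE 0.18, adjusted p = 5.43e-08), with the GSC arrays between those of ESC and MEF.

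Hoxb3, a gene of the hindbrain and neck, read 6.88, 6.38 and 6.81 in GSC and 5.55, 5.36 and 6.00 in ESC. The groups did not overlap, and the difference of 1.05 (SE 0.15, adjusted p = 3.4e-06) was close to the 2-fold limit: it fell under it without GSC replicate 1 (0.96), GSC replicate 3 (0.99) or ESC replicate 2 (0.91). On its other probe set, 1456229_at, Hoxb3 read 6.22, 6.16 and 6.15 against 3.50, 3.48 and 3.12, 2.81 higher (SE 0.14, adjusted p = 5.11e-13). The second probe set of Hoxb4 likewise gave 1.64 (SE 0.19, adjusted p = 2.52e-07). In the fit on probe sets, 11 sets of 9 genes were higher in GSC, where 9.32% of all probe sets were. Hoxc8 read 3.99, 4.31 and 4.79 against 3.24, 3.13 and 3.28, 1.15 higher (SE 0.19, adjusted p = 2.82e-05), and 0.94 higher without GSC replicate 3, which ended its call.

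The 1 HoxB gene not called, Hoxb7, read 3.97, 3.82 and 4.00 in GSC and 3.87, 3.97 and 3.93 in ESC, with a difference of 0.01 (95% interval -0.23 to 0.25). Its probe set lay between 3.73 and 4.21 on all 20 arrays. A probe set that carries the symbols of both Hoxb8 and Hoxb7, 1452493_s_at, read 6.93, 6.60 and 6.48 in GSC and 4.10, 4.22 and 4.42 in ESC, 2.42 higher (SE 0.16, adjusted p = 7.06e-11). The 2 probe sets thus differ in their pattern, and the second cannot be assigned to either gene. Among other genes not called, Hoxc4 had the largest difference at 0.77 (SE 0.22) and Hoxa5 the next at -0.75 (SE 0.17), and Hoxc5 was among the smallest at -0.03.

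**Figure D4:**
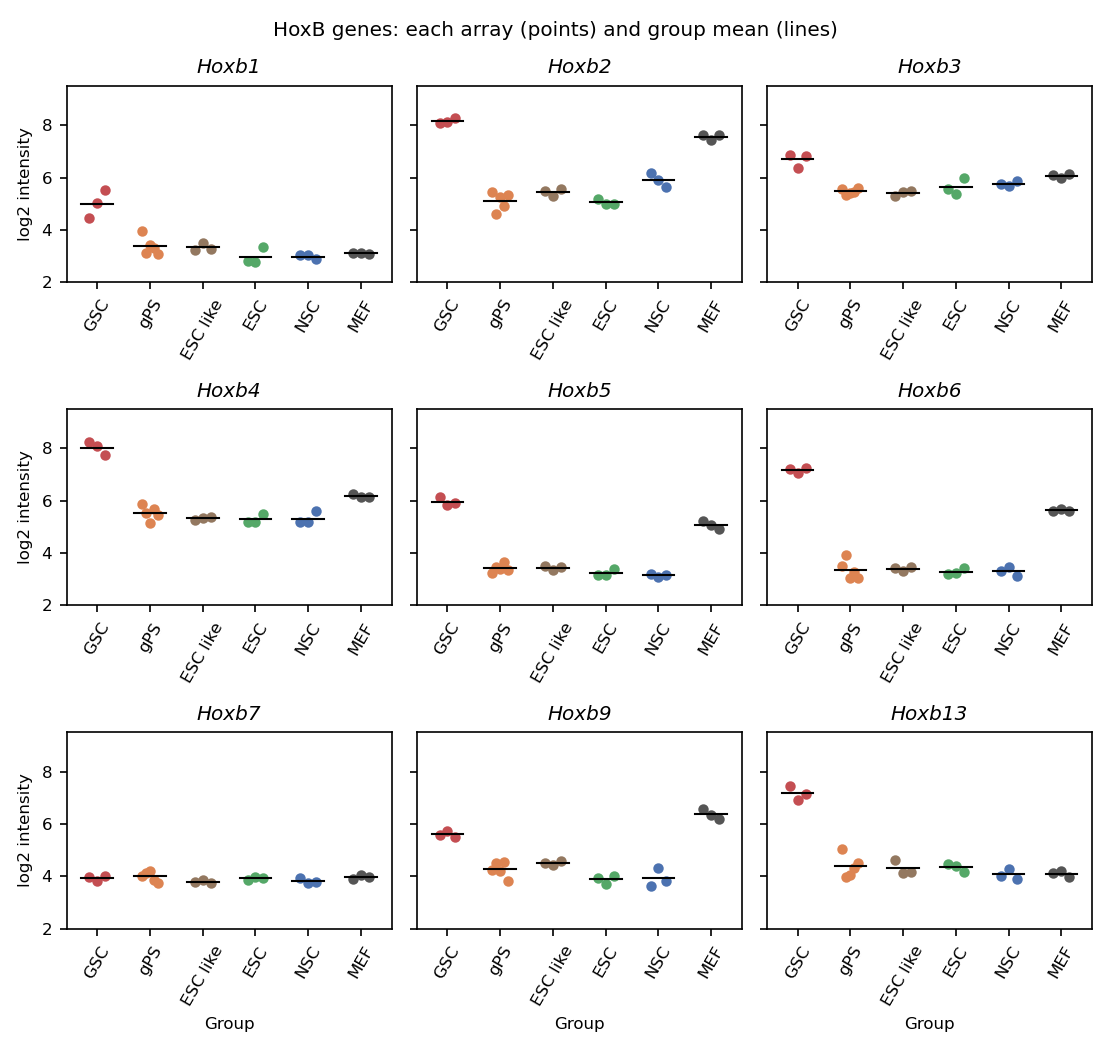
Each panel is 1 of the 9 HoxB genes, with points for arrays, black lines for group means and log2 intensity on the vertical axis. In 8 panels the GSC points lie above the gPS, ESC_like, ESC and NSC points without overlap, and Hoxb7 stays between 3.73 and 4.21 in all groups. MEF share the raised level of Hoxb2, Hoxb5, Hoxb6 and Hoxb9, and for Hoxb4 lie 0.89 above ESC, under the 2-fold limit. On its probe set not shown here, Hoxb3 is raised in MEF as well.

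GSC grew on fibroblasts, and 10 of the 13 fibroblast markers were higher in GSC than in ESC. The level of Hoxb6 above ESC on the linear scale was 315 to 360% of that in MEF on the GSC arrays, that of Hoxb2 151 to 177% and that of Hoxb9 45.0 to 55.6%, beside a summed fibroblast marker level of 7.43 to 9.08% of MEF. For Hoxc8 the same share was 1.66 to 4.62%; the part of fibroblast RNA in it was not tested. In a direct comparison, added after the data were seen, GSC were higher than MEF in 4 of 33 Hox genes (15.5% of all genes), Hoxb13 (3.07, SE 0.21), Hoxb1 (1.90, SE 0.22), Hoxb4 (1.85, SE 0.16) and Hoxb6 (1.56, SE 0.17). They were lower in 9 (12.9% of all genes), Hoxc8 (-4.31), Hoxd8 (-2.31), Hoxd13 (-2.30), Hoxc10 (-2.24), Hoxc6 (-2.18), Hoxc4 (-1.74), Hoxd10 (-1.71), Hoxa11 (-1.58) and Hoxa5 (-1.12). All 4 genes called higher in GSC lay in HoxB and all 9 called lower outside it, a split that rests on the 2-fold limit. Under that limit, by limma, Hoxb9 was lower in GSC (-0.76, SE 0.18, adjusted p = 0.00096) and Hoxd1 higher (0.44, SE 0.11, adjusted p = 0.00178). The 4 of 33 called higher is near the 15.5% of all genes. For Hoxb3 the probe sets went in opposite directions. On the set used it was 0.62 higher in GSC (SE 0.15), and on 1456229_at GSC read 6.22, 6.16 and 6.15, below 7.07, 6.81 and 6.96 in MEF. Hoxb5 (0.90) and Hoxa7 (-0.80) were the largest differences not called, and Hoxb7 and Hoxa10 (both -0.04) the smallest.

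Against NSC, also added after the data were seen, GSC were higher in 8 Hox genes (14.6% of all genes) and lower in 2 (12.2% of all genes). The higher genes were Hoxb6 (3.89, SE 0.17), Hoxb13 (3.10, SE 0.21), Hoxb5 (2.83, SE 0.12), Hoxb4 (2.71, SE 0.16), Hoxb2 (2.25, SE 0.18), Hoxb1 (2.03, SE 0.22), Hoxb9 (1.68, SE 0.18) and Hoxc8 (1.28, SE 0.19). Hoxa2 was lower by the largest amount, with a difference of -3.25 (SE 0.14), and Hoxa4 had -1.02 (SE 0.15), a call that ended without GSC replicate 2 (-0.99), NSC replicate 1 (-0.97) or NSC replicate 3 (-0.92). On the mean of its probe sets the Hoxa4 difference was -0.47 and with array weights -0.97, neither of which was called. Hoxc4 (0.97) and Hoxb3 (0.93) missed the limit, and Hoxa10 (0.01) and Hoxd12 (-0.03) differed least.

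The step from GSC to gPS cells is the conversion that the study is named for. In gPS, 8 of 33 Hox genes fell relative to GSC (10.9% of all genes) and 0 rose (9.10% of all genes); the unadjusted counts by limma were 13 lower and 2 higher. The 8 were Hoxb1, Hoxb2, Hoxb3, Hoxb4, Hoxb5, Hoxb6, Hoxb9 and Hoxb13, and the comparison shares the GSC arrays with that of GSC against ESC. Hoxb6 read 3.50, 3.91, 3.06, 3.28 and 3.03 in gPS replicates 1 to 5 and fell by 3.84 (SE 0.15, adjusted p = 1.36e-14). Hoxb2 read 5.46, 4.61, 5.26, 4.91 and 5.35 and fell by 3.04 (SE 0.16, adjusted p = 1.18e-12), and Hoxb13 read 5.03, 3.97, 4.06, 4.33 and 4.52 and fell by 2.79 (SE 0.19, adjusted p = 7.55e-11). Each gPS array was below every GSC array for all 3 genes. The median difference over the 33 Hox genes was -0.003 and that over the 9 HoxB genes -2.48, against 0.02 over all genes.

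Hoxb5 read 3.25, 3.48, 3.41, 3.66 and 3.35 in gPS and fell by 2.54 (SE 0.11, adjusted p = 6.25e-14), and Hoxb4 read 5.87, 5.53, 5.16, 5.70 and 5.45 and fell by 2.48 (SE 0.15, adjusted p = 8.96e-12). Hoxb1 read 3.94, 3.12, 3.41, 3.30 and 3.08 and fell by 1.63 (SE 0.20, adjusted p = 5.06e-07). These groups did not overlap either, and gPS replicate 1 was the highest gPS array for Hoxb1, Hoxb4 and Hoxb13. Hoxb9 read 4.24, 4.51, 4.22, 4.53 and 3.82 and fell by 1.34 (SE 0.16, adjusted p = 3.74e-07), and Hoxb3 read 5.58, 5.33, 5.42, 5.43 and 5.59 and fell by 1.22 (SE 0.13, adjusted p = 9.43e-08). In the fit on probe sets, 10 sets of 8 genes were lower, where 7.80% of all probe sets were. Hoxc8 (-0.91, SE 0.17) and Hoxa5 (0.81, SE 0.15) missed the limit, and Hoxa13 (means 4.17 in gPS, 4.18 in GSC) and Hoxd9 (-0.01) differed least.

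Between gPS and ESC, 0 of 33 Hox genes were called in either direction by limma, where 2.36% of all genes were higher in gPS and 2.13% lower. At an unadjusted p under 0.05, 1 Hox gene was higher and 1 lower. The differences ran from -0.57 to 0.40, with 95% intervals that reached from -1.01 to 0.81, and a missed threshold does not show that the levels were alike. Hoxc13 had the lowest difference (-0.57, SE 0.21, adjusted p = 0.0481) and Hoxb1 the highest (0.40, SE 0.20, adjusted p = 0.162). Hoxc5 (means 4.36 in gPS, 4.35 in ESC) and Hoxb13 (0.03) differed least. For the 8 genes that fell, the differences from ESC were 0.40 for Hoxb1, 0.07 for Hoxb2, -0.17 for Hoxb3, 0.26 for Hoxb4, 0.18 for Hoxb5, 0.08 for Hoxb6, 0.37 for Hoxb9 and 0.03 for Hoxb13. The gPS and ESC ranges overlapped for each of these 8 genes. They also overlapped for every other Hox gene except Hoxc13, so that overlap does not set the 8 apart. Of the 13 fibroblast markers, 9 were higher in gPS than in ESC, and the median difference of the 33 Hox genes was 0.08, against 0.02 over all genes.

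ESC_like cells, the other pluripotent cells from the testis, were higher than ESC in 2 of 33 Hox genes (5.11% of all genes) and lower in 0 (2.10% of all genes). At an unadjusted p under 0.05, limma gave 4 higher and 2 lower. The 2 of 33 is near the share of all genes, so that the count does not set Hox genes apart. Hoxc8 read 4.62, 4.72 and 4.42 in ESC_like, 1.37 above ESC (SE 0.19, adjusted p = 1.32e-05), and Hoxd13 read 5.63, 6.16 and 5.72, 1.17 above ESC (SE 0.19, adjusted p = 0.000103). Both were separate from ESC and below MEF. On the mean of its 2 probe sets Hoxd13 differed by 0.70 and was not called, and its other probe set gave 0.24 (SE 0.18). Probe sets not used by the rule added Hoxa5 (5.49, 5.71 and 5.37 on 1448926_at, 1.47 higher, SE 0.18) and Hoxa9 (5.62, 5.50 and 5.49 on 1455626_at, 1.50 higher, SE 0.20), which made 4 sets of 4 genes, where 4.09% of all probe sets were higher. The median difference of the 33 Hox genes was 0.04, against -0.09 over all genes.

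In MEF, whose comparison shares the ESC arrays, the same probe sets differed from ESC by 5.46 for Hoxc8, 2.25 for Hoxd13, 4.13 for Hoxa5 and 4.92 for Hoxa9. Of the 13 fibroblast markers, 10 were higher in ESC_like than in ESC, and the 13 summed to 16.7 to 20.8% of MEF. The level above ESC on ESC_like arrays was 24.8 to 48.1% of that in MEF for Hoxd13, 8.96 to 13% for Hoxa5, 5.91 to 6.81% for Hoxa9 and 3.04 to 4.28% for Hoxc8. Among other Hox genes higher in MEF, this measure on ESC_like arrays was -4.89 to -0.94% for Hoxc6 and -0.21 to 0.99% for Hoxc4. It was 0.53 to 2.82% for Hoxd8, -0.31 to 4.03% for Hoxc10 and 0.29 to 3.52% for Hoxb6. For Hoxb2 it was 4.1 to 9.35% and for Hoxb9 10.3 to 13.7%. On probe sets not used by the rule it was 8.09 to 9.74% for Hoxa10 and 4.39 to 8.57% for Hoxb3. Both unused sets of Hoxc5 gave low values, -0.33 to 1.82% and 0.21 to 1.53%. Some of these ranges overlapped those of Hoxc8, Hoxa9 and Hoxa5, so that the measure did not set these genes apart. Single fibroblast markers ranged from 1.54 to 3.15% for Pdgfra to 34.8 to 52.6% for Postn. Neural stem markers summed higher in ESC_like than in ESC as well, as given above, with 2 of 11 called higher. Their median difference was -0.26, and at an unadjusted p under 0.05 limma gave 4 higher and 4 lower. The part of RNA from fibroblasts or other cells in these values was not tested. Of genes not called, Hoxb9 (0.63, SE 0.18) and Hoxc13 (-0.46, SE 0.23) differed most from ESC, and Hoxa4 (-0.01) and Hoxd3 (-0.02) least.

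In gPS, 2 of 33 Hox genes were lower than in ESC_like (3.74% of all genes) and 0 were higher (1.11% of all genes), counts near the shares of all genes. At an unadjusted p under 0.05, 3 were lower and 3 higher by limma. Hoxc8 read 3.36, 3.91, 3.47, 3.07 and 3.49 in gPS, a difference of -1.13 (SE 0.17, adjusted p = 4.54e-05), and Hoxd13 read 5.17, 5.25, 4.69, 4.63 and 4.41, a difference of -1.01 (SE 0.17, adjusted p = 0.000187). On the sets used, the highest gPS array for both was replicate 2, which also had the highest fibroblast marker sum of the gPS arrays, 11.8% of MEF. For Hoxd13 the other set, 1422239_at, had another order, with 4.70, 4.73, 5.24, 4.40 and 5.34 in gPS replicates 1 to 5. Whether fibroblast RNA has a part in these values was not tested. The Hoxd13 call ended without gPS replicate 3 (-0.97), 4 (-0.96) or 5 (-0.90) or ESC_like replicate 2 (-0.84), and on the mean of its probe sets (-0.63). Hoxd12 (0.41) and Hoxa5 (0.39) were the largest differences not called, and Hoxb5 (-0.01) and Hoxa9 (0.02) the smallest.

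Lists of related genes are given beside the shares of all genes called higher and lower, which were 12.47% and 10.9% in MEF, 11.4% and 10.0% in NSC, and 13.1% and 10.2% in GSC, each against ESC. For gPS these shares were 9.10% and 10.9% against GSC and 2.36% and 2.13% against ESC. Of 8 measured TALE cofactor genes, Meis1, Meis2 and Pbx3 were higher in MEF than in ESC and again in NSC, and 0 were lower in either comparison (0 at an unadjusted p under 0.05 by limma). Meis1, a partner of Hox proteins in trunk and blood, had a mean of 6.82 in MEF, 7.73 in NSC and 3.94 in ESC, with differences of 2.88 (SE 0.13) and 3.79 (SE 0.13). Meis2 differed by 1.97 (SE 0.21) in MEF and 2.05 (SE 0.21) in NSC, and Pbx3 by 1.57 (SE 0.19) and 2.03 (SE 0.19). Pbx4 in MEF (-0.04) and Pknox2 in both (-0.13 and -0.03) differed little, as did Pbx2 in NSC (0.09). GSC had another set: Pbx2, a partner of Hox proteins at composite sites, was higher by 2.96 (SE 0.18, adjusted p = 1.45e-11), and Meis2 (-1.73, SE 0.21) and Pbx3 (-1.40, SE 0.19) were lower, while Pbx4 (0.15) and Meis3 (-0.21) were not called. Pbx2 fell by 2.02 from GSC to gPS, the 1 called gene of the list there, and Meis2 (-1.11) was the 1 gene lower in gPS than in ESC. Medians of the list against ESC were 0.38 in MEF, 0.27 in NSC and -0.25 in GSC, beside the medians over all genes given above.

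Retinoic acid pathway genes were measured for 15 of 17. In MEF 5 were higher and 0 lower (2 lower at an unadjusted p under 0.05 by limma), led by Crabp1, which binds retinoic acid in the cytoplasm (6.00, SE 0.27), Aldh1a1, which makes it (3.85, SE 0.11), Crabp2, which carries it to its receptor (2.63, SE 0.17), and the receptor Rarb (1.21, SE 0.17). In NSC 1 was higher, Aldh1a1 (2.17, SE 0.11), and 2 lower, the receptor Rarg (-2.56, SE 0.28) and Crabp2 (-1.93, SE 0.16), which is near the 11.4% and 10.0% of all genes. In GSC 3 were higher, Crabp1 (3.75, SE 0.27), Crabp2 (2.89, SE 0.17) and the retinoic acid synthesis gene Aldh1a2 (1.28, SE 0.27), and 0 were lower (2 unadjusted). From GSC to gPS 3 fell, Crabp1 by 2.78, Crabp2 by 1.10 and Aldh1a2 by 1.20, and 1 gene, Crabp2, was higher in gPS than in ESC (1.79). Stra6, the retinol transporter, differed little from ESC in MEF (-0.10) and GSC (0.05), as did Rxra in MEF (-0.12), Aldh1a3 in GSC (-0.01) and, in NSC, Dhrs3 (-0.09) and Rxrg (-0.13). The medians of the list were -0.10 in MEF, -0.34 in NSC and -0.01 in GSC.

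Cdx genes and the other ParaHox genes, relatives of Hox genes of which the Cdx factors switch on trunk Hox genes, gave 0 calls among 6 measured genes in MEF, NSC and GSC against ESC, and limma gave 1 lower gene at an unadjusted p under 0.05 in each. Pdx1 (0.08 in MEF, -0.04 in NSC), Cdx2 (-0.08 and -0.11), Cdx4 (-0.03 in GSC) and Cdx1 (-0.04 in GSC) differed least. In gPS 1 of the 6 was higher than in GSC and 1 than in ESC, in both Cdx1 (1.88 and 1.84). Cdx1 was also the 1 gene of the list higher in ESC_like than in ESC (2.11, SE 0.41, adjusted p = 0.000561). Medians against ESC were -0.27 in MEF, -0.30 in NSC and -0.21 in GSC.

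Polycomb subunits, which hold Hox clusters silent, were measured for 16 of 17. Counts of higher and lower genes were 4 and 8 in MEF, 3 and 7 in NSC, and 5 and 2 in GSC, each against ESC, beside the shares of all genes given above; 2 of 16 lower in GSC is near the 10.2% of all genes. Jarid2, which helps to recruit the methylating complex, had the largest difference in MEF (-4.84, SE 0.15), followed there by Phc1 (-3.79), the chromodomain gene Cbx7 (-3.48) and Phc2 (2.97). In NSC the largest were Cbx7 (-3.54), Phc2 (3.12), Bmi1 (2.99) and Jarid2 (-2.92), and in GSC Cbx8 (2.91), Phc2 (2.59), Cbx2 (2.53) and Bmi1 (2.32). Ring1 (0.03) and Cbx2 (-0.47) in MEF, Rnf2 (-0.12) and Ezh2 (-0.18) in NSC, and Rnf2 (-0.30) and Ring1 (0.32) in GSC were among those not called. From GSC to gPS 4 rose and 6 fell, and gPS against ESC gave 0 higher and 1 lower, Bmi1 (-1.68), with 7 higher and 6 lower at an unadjusted p under 0.05 by limma. The medians against ESC were -0.998 in MEF, -0.15 in NSC and -0.45 in GSC.

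Trithorax and H3K27 demethylase genes, which oppose Polycomb, were measured for 9 of 10. In MEF 0 were higher (0 at an unadjusted p under 0.05 by limma) and 5 lower, led by Ash2l (-3.19), Kdm6a (-1.96), Dot1l (-1.35) and Psip1 (-1.18), while Men1 (-0.19) and Kmt2a (-0.36) were not called. In NSC Ash2l (-2.12) and Kdm6a (-1.04) were lower and the demethylase Kdm6b higher (1.37), and Kmt2b (-0.39) and Psip1 (0.40) were not called. In GSC 3 were higher and 2 lower, among them Kdm6a (-2.05), Kdm6b (1.81), Kmt2a (1.75), the methyltransferase that maintains Hox expression, and Ash2l (-1.10). Dot1l (0.11) and Psip1 (0.59) were not called there. The medians against ESC were -1.18 in MEF, -0.39 in NSC and 0.88 in GSC. From GSC to gPS Kdm6a rose (1.75), Kdm6b fell by 1.61 and Kmt2a fell by 1.41, and gPS against ESC gave 0 calls, with 4 higher and 1 lower at an unadjusted p under 0.05 by limma.

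Genes next to the Hox clusters were measured for 16 of 18, to see how far the differences reached. Beside HoxB, in GSC against ESC, Skap1 (1.21, adjusted p = 1.61e-06) and Nfe2l1 (1.05, adjusted p = 1.46e-05) were higher, Cbx1 was lower (-1.41, adjusted p = 2.37e-07), and Snx11 (0.22) and Ttll6 (0.62) were not called. The neighbours of HoxB thus did not share 1 direction. Beside the other clusters, Skap2 (1.33) and Mtx2 (1.80) were higher, Hibadh (-1.41) and Cbx5 (-1.42) were lower, and Evx1 (-0.39), Calcoco1 (0.50), Smug1 (-0.47), Hnrnpa1 (-0.83), Evx2 (-0.17), Lnpk (-0.49) and Nfe2l2 (-0.95) were not called. Skap1 fell by 1.48 from GSC to gPS, as did Skap2 by 1.97 and Mtx2 by 1.35, Cbx1 (1.43) and Cbx5 (1.37) rose, and 0 of the 16 differed between gPS and ESC (2 higher and 3 lower at an unadjusted p under 0.05 by limma).

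In MEF against ESC, 1 flanking gene was higher, Lnpk beside HoxD (1.22), and 4 were lower, Cbx1 (-1.30), Cbx5 (-1.27), Hibadh (-1.17) and Skap2 (-1.07), while Smug1 (0.03) and Evx2 (-0.04) differed least. In NSC, Skap2, beside the anterior end of HoxA, was higher by 1.73 (adjusted p = 1.91e-09) and Hibadh was lower (-1.25), and Nfe2l1 (mean 7.77 in both) and Smug1 (0.04) differed least. The medians over the 16 genes were -0.32 in MEF, -0.18 in NSC and -0.28 in GSC.

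Regional genes of the brain and of the limb gave the positional background. Of 14 measured forebrain to hindbrain genes, NSC were higher in 4, among them Irx3 (3.25), the forebrain gene Lhx2 (2.95) and the hindbrain gene Egr2 (2.23), and lower in 1, Otx2 (-3.75), a gene of the forebrain and midbrain that ESC also express. Six3 (-0.01) and Fgf8 (0.02) were not called in NSC. MEF were higher in 4, among them Emx2 (2.77), Irx3 (2.51) and Egr2 (2.50), and lower in 3 with Otx2 (-4.67) the largest, and Fgf8 (-0.02) and Otx1 (-0.07) differed least. GSC were higher in 2, Egr2 (4.12) and Lhx2 (2.59), and lower in 3 with Otx2 (-4.72) and Gbx2 (-2.19), and Pax8 (0.04) and Fgf8 (-0.05) differed least. From GSC to gPS 2 rose and 2 fell, and Egr2 was higher (1.37) and Otx2 lower (-1.68) in gPS than in ESC. Medians against ESC were -0.04 in MEF, 0.12 in NSC and -0.002 in GSC.

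Of 19 measured limb and body wall mesenchyme genes, MEF were higher in 8 and lower in 1. Prrx2, a mesenchymal homeobox gene, differed by 5.22 (SE 0.25), Shox2, a gene of the upper limb bones, by 4.41 (SE 0.14), Tbx18 by 3.37 (SE 0.17) and Tbx3, which ESC express, by -3.13 (SE 0.29), while Dlx6 (0.02) and Lmx1b (0.03) differed least. NSC were higher in 2, Tbx18 (5.10) and Tbx15 (1.77), and lower in 1, Tbx3 (-5.07), with Prrx2 (-0.01) and Alx4 (0.01) least. GSC were higher in 2, Prrx2 (1.86) and Msx2 (1.50), and lower in 1, Tbx3 (-2.16), with Tbx18 (means 3.98 in GSC, 3.99 in ESC) and Tbx2 (0.02) least. Medians against ESC were 0.35 in MEF, -0.09 in NSC and -0.17 in GSC. From GSC to gPS Tbx3 rose (1.70) and Msx2 fell by 1.08, and gPS against ESC gave 0 calls, with 6 higher and 0 lower at an unadjusted p under 0.05 by limma.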

How the data were processed

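RNA of 20 mouse cell samples in 6 groups was hybridised to Affymetrix arrays. The authors deposited log2 intensities per probe set, and the submitters' processing notes name RMA without a version. That method subtracts background, equalises the distributions of the arrays and combines the probes of a set, so that levels depend on the arrays treated together, which the sources used here do not name.

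Values were used as deposited. After removal of 64 controls from 45101 probe sets, 1 symbol was annotated for 34945, several for 932 and none for 9160, and symbols were updated through gene identifiers from a RefSeq gene table (GRCm38.p6). Each of 18193 genes took its brightest probe set. A model of 6 group means and no covariate was fitted over the 20 arrays (limma 3.58.1, R 4.3.3, lmFit and eBayes) and p-values were adjusted by Benjamini-Hochberg over all genes; the code was tested on simulated data. Intervals are at 95%. The number of arrays limits precision.

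The members, the gene lists and the comparisons were chosen with earlier results of these data known. In each comparison all called Hox genes were named, up to 10 with values per array, with the 2 largest and 2 smallest differences not called; from each list up to 4 called genes and 2 not called, and all flanking genes. List genes of the gPS comparisons were named after their values were seen. Alternatives were probe sets averaged per gene, shared-suffix sets left out, quantile normalization, array weights, a variance trend, only the compared groups, ESC_like or gPS replicates 1 and 2 left out, a dim filter, no fold limit, the replicate number as a block and each array left out in turn. The comparisons of GSC with MEF and NSC, and a choice of probe set by highest SD, were added once values had been seen. Figures were made with Python 3.11.15, pandas 2.3.3 and matplotlib 3.10.9.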

Additional observations from a re-analysis of the deposited data

Results flagged for a closer look

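Hoxd9 on gPS replicate 2 stood apart from the other gPS arrays. It read 4.69 there and 5.53 to 5.84 on the other 4, and the gap was 0.729 of the group's range, above Dixon's critical value of 0.71 for 5 samples. It was the only 1 of 33 Hox genes tested in this way that stood out, and chance flags about 1 in 20 groups.

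Some probe sets of the Hox clusters belong to no member gene and were in no comparison of genes, yet had a level above the ESC arrays. The antisense transcript Hoxa11os (1452400_a_at) had a mean of 4.65 in MEF, where the ESC arrays read 2.90 to 3.22. Hoxb5os (1447886_at) had a mean of 7.56 in MEF against 5.79 to 5.85 in ESC. The probe set shared by Hoxb8 and Hoxb7 (1452493_s_at) had a mean of 6.67 in GSC against 4.10 to 4.42 in ESC.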

How the results depend on the processing

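No called difference of a Hox gene changed its sign under any alternative run. Direction and call were kept in 760 of 767 gene results under other settings and in 435 of 446 with an array left out. The 767 include the run with no fold threshold, which uses the same fit and so keeps every call by design. Genes that a filter removed were left out of these totals and were not counted as lost. With no fold threshold the counts of called Hox genes were 23 for MEF against ESC, 8 for NSC against ESC, 20 for MEF against NSC, 14 for gPS against GSC, 1 for gPS against ESC, 25 for GSC against MEF and 20 for GSC against NSC. With the probe set of highest SD, chosen after seeing the data, NSC against ESC and ESC_like against ESC gave 4 each. Averaging the probe sets of a gene gave 1 for ESC_like against ESC and 1 for gPS against ESC_like. Leaving out genes below 6 in every group, which kept 18 of the 33 members, gave 1 for NSC against ESC. Quantile normalization put Hoxb3 in GSC against ESC at 0.97.

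Leaving out 1 array at a time gave 12 for MEF against ESC, 2 to 3 for NSC against ESC, 13 to 14 for MEF against NSC, 7 to 9 for GSC against ESC, 8 to 9 for gPS against GSC, 0 for gPS against ESC, 2 for ESC_like against ESC, 1 to 2 for gPS against ESC_like, 13 for GSC against MEF and 9 to 11 for GSC against NSC.

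The replicate numbers are shared across groups without a label that pairs them. Same-numbered arrays correlated in their deviations from group means at -0.170 to 0.269 (median 0.020, 45 pairs) and other pairs at -0.346 to 0.316. With the replicate block 1 Hox gene was called for gPS against ESC_like, where Hoxd13 had -0.80.

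Dim probe sets limit what can be seen: 15 of the 33 members stayed below 6 in every group, and 14 have no promoter window here.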
